A study of Mus musculus with 12 samples.

Results

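The amino acid transporter genes were described in the newborn mouse brain in the presence and absence of the protein kinase KIS, the product of Uhmk1. They were chosen by name, as the genes whose symbol begins with Slc1a, Slc3a, Slc7a, Slc36a, Slc38a or Slc43a and which have main probesets on the array, leaving out genes within 20 Mb of Uhmk1 on chromosome 1. This gave 43 of the 17550 genes with a main probeset: 7 of Slc1a, 2 of Slc3a, 16 of Slc7a, 4 of Slc36a, 11 of Slc38a and 3 of Slc43a. No gene of these families lay in the window around Uhmk1. The choice by symbol took in Slc7a6os, a neighbour of Slc7a6 on the opposite strand whose product is not a transporter, and Slc43a3, whose product is known as a carrier of purine nucleobases.

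Total RNA came from whole brains of 12 newborn female mice, 6 wildtype (KIS +/+) and 6 KIS-ko (KIS -/-), and each of 6 litters gave 1 brain of either genotype. The line had been backcrossed for 10 generations to C57BL6/N, and the deletion is present in all cells of the animal. Each brain was hybridized to 1 Affymetrix Mouse Exon 1.0 ST array, on which short probes that lie in the same part of an exon form a probeset. The level of a gene is given here as its gene value, the mean over its kept probesets of log2(signal + 16), and differences are KIS-ko minus wildtype on that log2 scale.

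The targeted gene followed the labels. The gene value of Uhmk1 was 10.97 ± 0.057 (SD, n = 6) in wildtype and 8.85 ± 0.15 in KIS-ko brains, a difference of -2.11 (SE 0.068, adjusted p = 2.9e-07 by limma) that ranged from -2.35 to -1.91 over the litters. The median signal of an array lay between 460 and 526, and the correlation between arrays between 0.978 and 0.992. All 7 neuronal markers tested (Tubb3, Snap25, Syt1, Stmn2, Gap43, Nefl and Dcx) were above background.

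Amino acids cross membranes through carriers of several families. Slc1a proteins take up glutamate or exchange small neutral amino acids along the sodium gradient, and in the brain those of astrocytes and radial glia clear glutamate from around synapses. Most Slc7a light chains reach the membrane only when joined to a heavy chain of the Slc3a family, whereas the cationic amino acid transporters of the same family act alone. Slc38a proteins move glutamine and other neutral amino acids between glia and neurons or out of lysosomes. Some Slc36a proteins are proton-coupled carriers, and Slc43a proteins transport large neutral amino acids by facilitated diffusion.

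Transcription of several of these genes is known to rise when amino acids are scarce, through a C/EBP-ATF response element that the factor ATF4 binds. The letters TGATGCAA, the core of this element, were searched on both strands of the RefSeq promoters of assembly GRCm38.p6, which run from 250 bases before to 50 bases after a start site. The letters were chosen with the values of the genes known. Of the 43 genes, 32 had a promoter in that table and 11 had not. A match was present in 294 of all 32851 promoters (0.895%) and in 4 of the 43 promoters of transporter genes, which belong to 3 genes, Slc1a4, Slc7a11 and Slc7a7. The 2 promoters of Slc7a7 with a match overlap and share the same site. The promoters of Slc1a4 (chr11:20332664-20332963) and Slc7a11 (chr3:50443564-50443863), both on the minus strand, are shown as examples of promoters with a match in genes above background. Slc1a6 and Slc38a9, with differences of -0.14 and -0.10 beside the -0.10 of Slc1a4, had promoters with no match, and Slc7a3 had no promoter in the table. Capitals mark the match, which is a description of letters and not of a bound site.
Slc1a4: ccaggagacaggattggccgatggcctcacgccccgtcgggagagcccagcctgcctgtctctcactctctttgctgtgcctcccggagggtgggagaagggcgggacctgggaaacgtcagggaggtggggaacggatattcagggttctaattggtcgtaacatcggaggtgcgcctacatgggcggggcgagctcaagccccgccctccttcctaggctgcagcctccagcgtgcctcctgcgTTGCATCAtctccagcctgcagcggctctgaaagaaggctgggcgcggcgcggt
Slc7a11: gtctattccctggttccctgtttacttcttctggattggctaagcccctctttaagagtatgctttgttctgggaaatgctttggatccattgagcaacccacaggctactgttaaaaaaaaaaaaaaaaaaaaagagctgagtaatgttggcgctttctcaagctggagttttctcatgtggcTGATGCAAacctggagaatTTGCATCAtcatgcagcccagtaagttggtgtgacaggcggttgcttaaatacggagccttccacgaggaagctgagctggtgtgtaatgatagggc
In Slc7a11 the matches lie at bases 185 to 192 and, on the other strand, 204 to 211, and in Slc1a4 the match lies on the other strand at bases 247 to 254, counted from 1 at the first base shown.

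Of the 614 main probesets of the 43 genes, 578 were kept, between 4 and 22 per gene with a median of 13, so that all 43 genes could be tested. Levels were set against the intron control probesets and not against each other, since probesets differ in affinity. A gene was called above background when the majority of its kept probesets had a mean wildtype signal over the 95th percentile of the intron controls, a signal of 714. By this measure 22 of the 43 genes were above background at birth, against 36.0% of all 17279 genes tested.

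In the Slc1a family the glutamate carriers Slc1a1 (the neuronal EAAC1), Slc1a2 (GLT-1) and Slc1a3 (GLAST) and the neutral amino acid exchanger Slc1a4 (ASCT1) were above background. Their wildtype gene values were 11.07 ± 0.039, 10.77 ± 0.12, 12.04 ± 0.056 and 11.27 ± 0.12 (SD, n = 6). The glutamine exchanger Slc1a5 (ASCT2) had 1 of 11 probesets above background, Slc1a6, known from Purkinje cells, 1 of 10, and Slc1a7, known from the retina, 0 of 12.

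The heavy chain Slc3a2 (CD98) had 11 of 12 probesets above background and a gene value of 11.86 ± 0.030 (SD, n = 6), whereas Slc3a1, the partner of Slc7a9 in kidney and gut, had 0 of 11. Of the light chains that pair with Slc3a2, those above background were Slc7a5 (LAT1, a carrier of large neutral amino acids across the blood-brain barrier) at 12.21 ± 0.050, Slc7a8 (LAT2) at 10.71 ± 0.084, Slc7a6 (y+LAT2) at 10.48 ± 0.021 and Slc7a11 (xCT, which imports cystine in exchange for glutamate) at 9.77 ± 0.073. Slc7a10 (Asc-1, a carrier of glycine and D-serine) had 5 of 13 probesets above background and Slc7a7 (y+LAT1) 0 of 12. Among the cationic amino acid transporters, which import arginine and lysine, all 11 probesets of Slc7a1 were above background, 7 of 15 of Slc7a3 and 3 of 17 of Slc7a2. The related Slc7a4 and Slc7a14 were above background, and Slc7a9, Slc7a12, Slc7a13 and Slc7a15 had no probeset above it. Slc7a6os, with 3 of 6, lacked a majority.

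Of the Slc36a carriers, Slc36a1 (PAT1, found on lysosomes) and Slc36a4 (PAT4) were above background with gene values of 9.95 ± 0.061 and 11.11 ± 0.054 (SD, n = 6), whereas Slc36a2 and Slc36a3 had no probeset above it. In the Slc38a family the sodium-coupled glutamine transporters Slc38a1, Slc38a2, Slc38a3 and Slc38a5 were above background, with 17 of 20, 20 of 20, 16 of 19 and 10 of 16 probesets. Slc38a7, a carrier of glutamine out of lysosomes, had 11 of 13 and the lysosomal arginine sensor Slc38a9 had 8 of 17, just under the majority. Slc38a6 and Slc38a10 were above background and Slc38a4, Slc38a8 and Slc38a11 were not. Of the Slc43a family only Slc43a2 (LAT4) was above background by this rule, with 14 of 16 probesets, while Slc43a3 had 5 of 15 and Slc43a1 (LAT3) 0 of 19.

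The spread between the 6 wildtype brains differed from gene to gene. The SD of the gene value was smallest for Slc7a6 (0.021) and largest for Slc7a3 (0.19) and Slc38a9 (0.19).

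**Figure D1:**
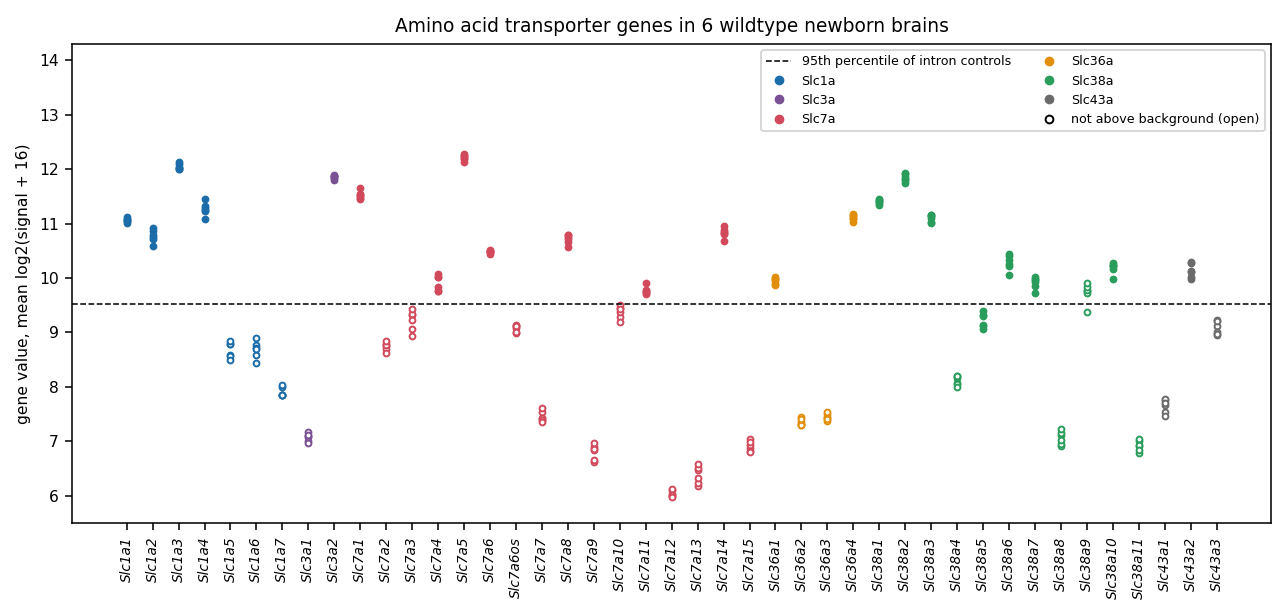
Gene value (mean of log2(signal + 16), vertical axis) of each of the 43 genes in the 6 wildtype brains, 1 point per array, coloured by family, with the 95th percentile of the intron controls as a dashed line at 9.51. Filled points mark the 22 genes above background, called by the majority of probesets and not by the line. Slc38a5 (mean 9.22, below the line) is therefore filled and Slc38a9 (mean 9.73, above it) open. The lowest mean is that of Slc7a12 (6.04) and the highest that of Slc7a5 (12.21). Since probesets differ in affinity the order of the genes is not an order of transcript numbers.

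Loss of KIS was compared with wildtype within litters. No transporter gene passed the test after adjustment over all genes (limma, Benjamini-Hochberg, lowest adjusted p = 0.685), where 0.00579% of all genes, Uhmk1 alone, did. At an unadjusted p under 0.05, Slc7a3 was lower in KIS-ko brains and no transporter was higher, against 4.34% of all genes lower and 1.82% higher. The difference was negative in 33 of the 43 genes (76.7%) and in 69.8% of all genes, with a median of -0.04 for the transporters and -0.04 for all genes. Without litter 4 the median was -0.07 for the transporters and -0.06 for all genes. Without Slc7a6os, the difference was negative in 32 of 42. These directions depend on the scale of the arrays: once each array was centred on its median, 17 of the 43 genes were lower, with a median of 0.01, where 37.8% of all genes were lower. After a further quantile normalization 26 were lower, with a median of -0.01, against 48.8% of all genes.

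The direction was also read beside that of genes of like brightness. Of the 22 transporters above background, 21 were lower in KIS-ko brains, Slc38a7 being the exception, with a median of -0.05, and 86.4% of the 6214 genes above background in the whole table were lower, with a median of -0.05. Of the 21 transporters not above background 12 were lower (57.1%), against 60.5% of all such genes. With centred arrays 10 of the 22 bright transporters were lower, against 40.9% of the 6214 genes, and with the further quantile normalization 18, against 60.4%.

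By family, 6 of 7 Slc1a genes were lower (median -0.08), 1 of 2 Slc3a genes (-0.02), 13 of 16 Slc7a genes (-0.07), 2 of 4 Slc36a genes (-0.02), 8 of 11 Slc38a genes (-0.03) and 3 of 3 Slc43a genes (-0.02). With centred arrays the medians of Slc1a and Slc7a were -0.03 and -0.01, whereas those of Slc3a, Slc36a, Slc38a and Slc43a turned positive, at 0.04, 0.04, 0.03 and 0.04. After the further quantile normalization they were -0.03 and -0.03 for Slc1a and Slc7a, and those of the other families were again positive, between 0.01 and 0.02. No family had a gene past the adjusted threshold.

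**Figure D2:**
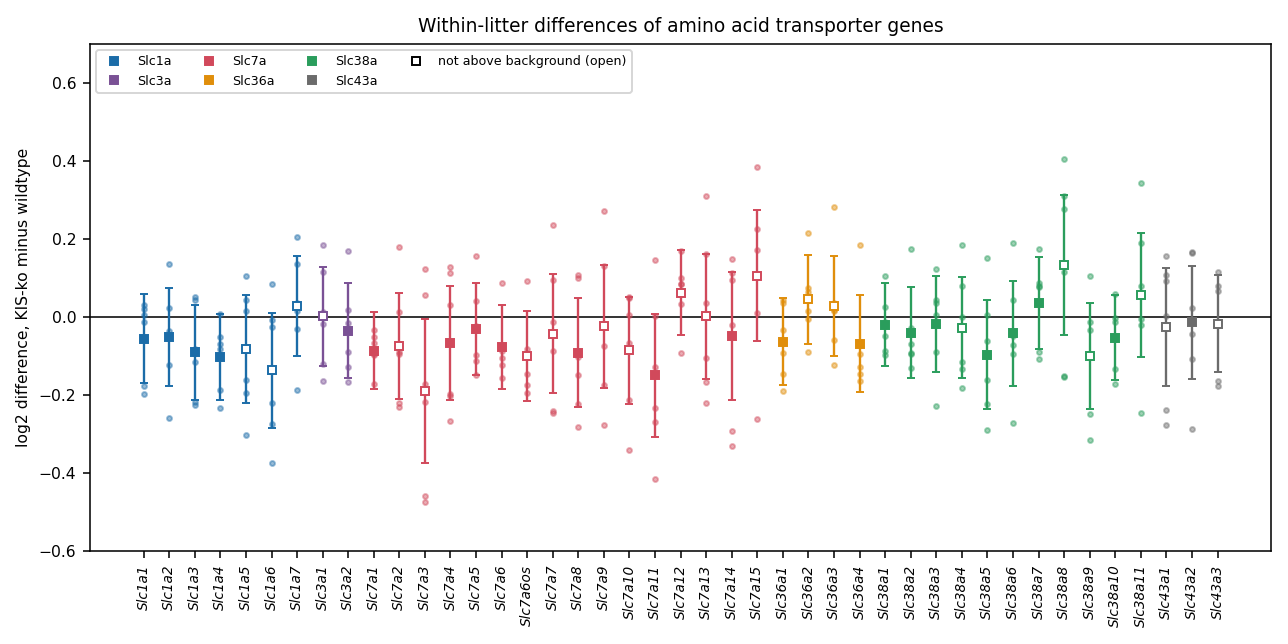
Difference of the gene value, KIS-ko minus wildtype (log2, vertical axis), for the 43 genes: small points are the 6 litters, squares the mean with its 95% interval from limma, open where the gene was not above background. The means lie between -0.19 (Slc7a3) and 0.13 (Slc38a8) and the interval excludes 0 for Slc7a3 alone.

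Among the cationic amino acid transporters, Slc7a1 (CAT1; chromosome 5, 149144016 to 149176827 as the table lists it) lay between 11.45 and 11.66 in wildtype brains (median 11.51) and between 11.41 and 11.49 in KIS-ko brains (median 11.43). The groups overlapped, although the KIS-ko brain was the lower of the pair in all 6 litters, by 0.03 to 0.17. This was the only transporter gene lower in every litter, where 1.60% of all genes were lower in all 6 and 0.920% higher in all 6, and no transporter was higher in all 6. The mean difference was -0.09 (SE 0.045, adjusted p = 0.685 by limma), a change of -5.80% with a 95% interval from -12.0% to 0.892%. With 6 differences of the same sign, the two-sided exact sign-flip permutation test can only give its smallest p, 0.03125, which adds nothing to that count. All 11 probesets of Slc7a1 were lower, where 66.2% of all probesets were. The probesets of a gene share the same arrays, so here and in the genes below their counts are not counts of replicates. The share of all genes with every probeset lower was not computed. With centred arrays its difference was -0.03, and it was lower in 4 of 6 litters.

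Slc7a3 (CAT3, an arginine carrier known from neurons; chromosome X, 98274592 to 98280276) ranged from 8.93 to 9.43 in wildtype (median 9.28) and from 8.76 to 9.29 in KIS-ko brains (median 9.03). The KIS-ko brain was lower in 4 of 6 litters, by 0.46 and 0.48 in litters 2 and 6, and higher by 0.12 and 0.06 in litters 3 and 4, so that both directions were present and the groups overlapped. The mean difference was -0.19 (SE 0.083, unadjusted p = 0.044 and adjusted p = 0.685 by limma), or -12.4% with a 95% interval from -22.9% to -0.460%, and the exact sign-flip permutation test gave p = 0.156. Of its 15 probesets, 14 were lower. Slc7a3 no longer passed the unadjusted threshold without litter 1, 2, 5 or 6, without the litter in the fit, with a pseudocount of 1, or with centred or again quantile-normalized arrays, where its difference was -0.14 and -0.14. Slc7a2 (CAT2) differed by -0.07 (SE 0.061), with wildtype values between 8.62 and 8.85 and KIS-ko values between 8.54 and 8.80.

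Slc7a11 (xCT; chromosome 3, 50176225 to 50247481), whose promoter is shown above, lay between 9.70 and 9.91 in wildtype (median 9.75) and between 9.49 and 9.89 in KIS-ko brains (median 9.56). The KIS-ko median was below every wildtype value, but a KIS-ko brain reached nearly the highest of them. All 12 of its probesets were lower in KIS-ko brains, and the mean difference was -0.15 (SE 0.071, adjusted p = 0.685 by limma). The difference was negative in 4 of 6 litters, 0.00 in litter 3 and 0.14 in litter 4. Without litter 4 it was -0.21, and with centred arrays -0.09.

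Slc1a4 (ASCT1, known as a carrier of serine; chromosome 11, 20202387 to 20232382) ranged from 11.08 to 11.45 in wildtype brains (median 11.26) and from 11.03 to 11.25 in KIS-ko brains (median 11.18), and the groups overlapped between 11.08 and 11.25. All 11 probesets were lower, and the KIS-ko brain was lower in 5 of 6 litters. The mean difference was -0.10 (SE 0.050, adjusted p = 0.685 by limma), or -6.87% with a 95% interval from -13.7% to 0.500%, and the exact sign-flip permutation test gave p = 0.0625. With centred arrays the difference was -0.05, and the KIS-ko brain was the lower in all 6 litters. The share of all genes lower in all 6 was not computed for centred arrays.

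Neither glial glutamate carrier passed an unadjusted p of 0.05 (0.125 for Slc1a3 and 0.382 for Slc1a2 by limma). Slc1a3 (GLAST) lay between 11.99 and 12.14 in wildtype (median 12.02) and between 11.78 and 12.08 in KIS-ko brains (median 11.95), a difference of -0.09 (SE 0.055). Slc1a2 (GLT-1) lay between 10.58 and 10.91 in wildtype (median 10.77) and between 10.61 and 10.84 in KIS-ko brains (median 10.70), a difference of -0.05 (SE 0.057) that became 0.00 with centred arrays. In both genes the groups overlapped. The neuronal Slc1a1 differed by -0.06 (SE 0.052) and was lower in 3 of 6 litters. Slc1a6 differed by -0.14 (SE 0.066) and was lower in 5 of 6 litters, with 1 probeset in 10 above the 95th percentile of the intron controls. Slc1a5 differed by -0.08 (SE 0.062) and Slc1a7, at 0.03 (SE 0.058), had the highest difference of the family.

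Astrocyte markers were lower as well. All 9 (Aldh1l1, Gfap, Aqp4, Gja1, Gjb6, Aldoc, S100b, Fgfr3 and Sox9) were lower in KIS-ko brains, where 69.8% of all genes and 86.4% of those above background were lower, with a median of -0.10. With centred arrays 8 of 9 were lower, with a median of -0.05, against 37.8% of all genes. Their summed level ranged from 13.49 to 13.69 in wildtype and from 13.37 to 13.61 in KIS-ko brains (log2). None of the 9 passed the adjusted test. Gfap, not above background, differed most (-0.27, SE 0.081, adjusted p = 0.685 by limma). In whole brain RNA, fewer cells of a type and less RNA per cell cannot be told apart, and the part of astrocytes in the values of Slc1a2, Slc1a3 and Slc7a11 was not tested.

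In the heavy chain and in LAT1, a partner of it for large neutral amino acids, the KIS-ko values spanned the wildtype ones, with the KIS-ko brain of litter 4 at the upper end. Slc3a2 ranged from 11.81 to 11.88 in wildtype (median 11.86) and from 11.68 to 12.01 in KIS-ko brains (median 11.80), with a difference of -0.04 (SE 0.055, 95% interval -0.16 to 0.09). Slc7a5 ranged from 12.13 to 12.28 in wildtype (median 12.22) and from 12.09 to 12.34 in KIS-ko brains (median 12.15), with a difference of -0.03 (SE 0.053, 95% interval -0.15 to 0.09). Without litter 4 the differences of Slc3a2 and Slc7a5 were -0.08 and -0.07, and the highest KIS-ko values, 11.87 and 12.24, lay below the highest wildtype ones. For both, the sign turned with centred arrays, to 0.02 and 0.02.

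Slc7a8 differed by -0.09 (SE 0.063), Slc7a6 by -0.08 (SE 0.049), lower in 5 of 6 litters, Slc7a10 by -0.09 (SE 0.062) and Slc7a7 by -0.04 (SE 0.069). Slc7a6os, on the other strand beside Slc7a6, differed by -0.10 (SE 0.052) and was likewise lower in 5 of 6 litters. Slc3a1 had a difference of 0.00 (SE 0.057). The highest of the Slc7a differences was 0.11 (SE 0.076), in Slc7a15, none of whose 7 probesets was above background.

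Of the glutamine transporters, Slc38a2 (SNAT2, known to rise when amino acids are withdrawn) lay between 11.74 and 11.93 in wildtype (median 11.83) and between 11.65 and 12.08 in KIS-ko brains (median 11.77). The KIS-ko brain was lower in 5 of 6 litters and higher by 0.17 in litter 4, and the mean difference was -0.04 (SE 0.053). Slc38a1 (SNAT1, found in neurons) differed by -0.02 (SE 0.048), and Slc38a3 (SNAT3, which releases glutamine from astrocytes) by -0.02 (SE 0.055), with wildtype values from 11.01 to 11.15 and KIS-ko values from 10.91 to 11.19. All 3 turned to between 0.01 and 0.04 with centred arrays. Slc38a5 (SNAT5) had the lowest difference of the bright Slc38a genes, -0.10 (SE 0.062), lower in 4 of 6 litters. Its wildtype values ran from 9.06 to 9.40 (median 9.22) and its KIS-ko values from 8.95 to 9.47 (median 9.10), and the groups overlapped throughout.

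The lysosomal carriers and those of the Slc36a family had differences of either sign. Slc38a7 was higher in 4 of 6 litters, with a mean difference of 0.04 (SE 0.053), wildtype values from 9.73 to 10.02 (median 9.95) and KIS-ko values from 9.81 to 10.10 (median 9.92). With centred arrays it was higher in 6 of 6 litters, by 0.09 (unadjusted p = 0.0214 by limma). It was then the only transporter gene under 0.05, though not after adjustment, where 1097 of all 17279 genes were under 0.05. The share of all genes higher in all litters was not computed for centred arrays. Slc38a9 differed by -0.10 (SE 0.061), Slc36a1 by -0.06 (SE 0.050) and Slc36a4 by -0.07 (SE 0.056). All 15 probesets of Slc36a4 were lower, although the gene was lower in 5 of 6 litters only. Slc36a2 had the highest difference of its family, 0.05 (SE 0.051). Slc38a8, with 1 of 15 probesets above background, had the highest difference of the 43 genes (0.13, SE 0.081, 95% interval -0.05 to 0.31).

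Within the Slc43a family, Slc43a2 ranged from 9.98 to 10.29 in wildtype (median 10.12) and from 9.84 to 10.44 in KIS-ko brains (median 10.11), the wider range being that of the KIS-ko brains. Its difference was -0.01 (SE 0.065), and those of Slc43a1 and Slc43a3 were -0.03 (SE 0.068) and -0.02 (SE 0.056). All 3 were positive, between 0.03 and 0.04, with centred arrays. The transporters not yet given a difference (Slc7a4, Slc7a9, Slc7a12, Slc7a13, Slc7a14, Slc36a3, Slc38a4, Slc38a6, Slc38a10 and Slc38a11) differed by -0.07 to 0.06.

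**Figure D3:**
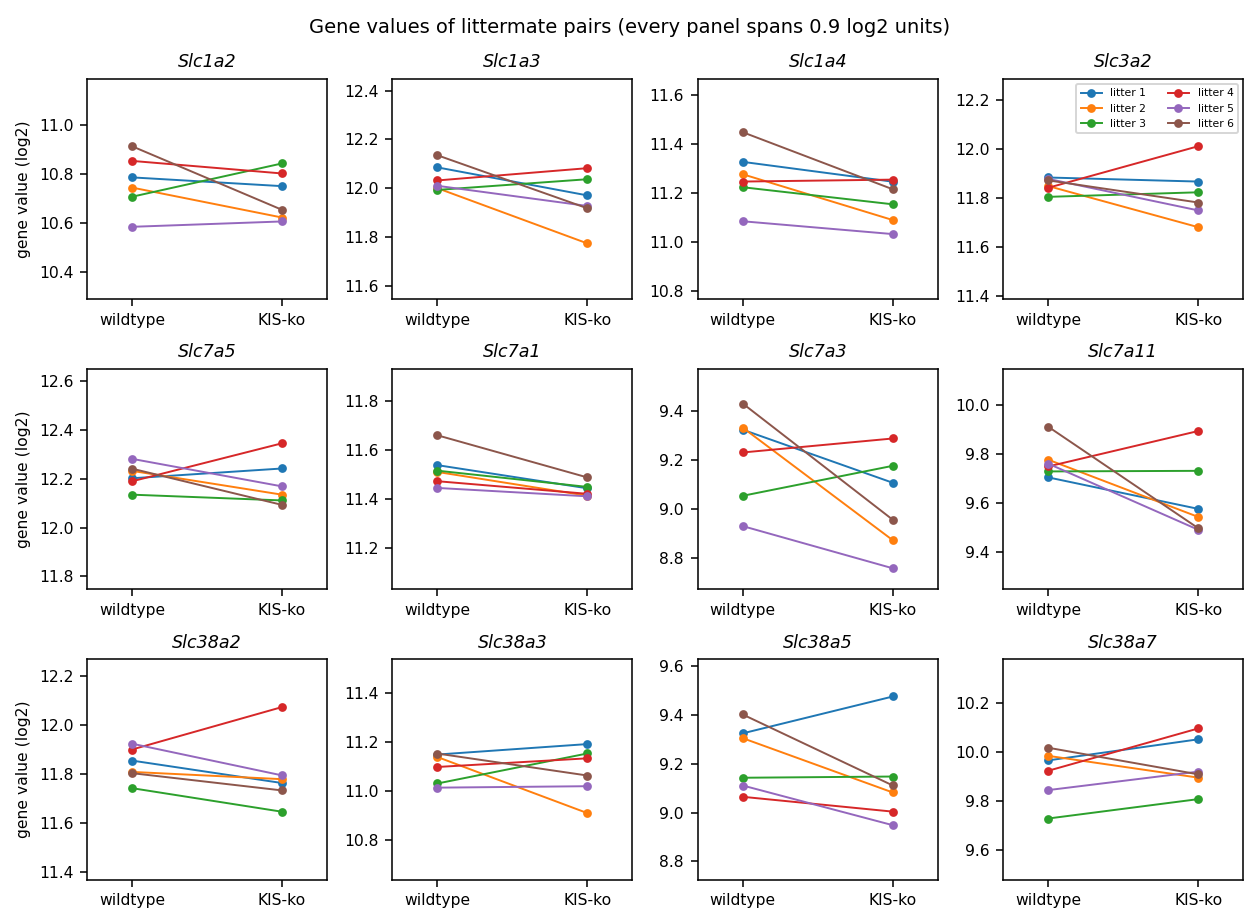
Gene values (log2(signal + 16), vertical axis) of 12 transporter genes in wildtype and KIS-ko brains, with a line joining the littermates of each of the 6 litters and every panel spanning 0.9 log2 units. All 6 lines of Slc7a1 run downwards, those of Slc7a3 and Slc7a11 run downwards in 4 litters, and the ranges of the genotypes overlap in every panel.

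In no transporter gene did all KIS-ko arrays lie below all wildtype arrays, which was the case for 0.122% of all genes, nor was the reverse seen. The SE of the 43 differences ranged from 0.045 to 0.083. The spread between litters, as the SD of a gene's within-litter differences, ranged from 0.049 (Slc7a1) to 0.25 (Slc7a3). A small difference in a single gene was within that spread. A p above the threshold here does not show that levels were equal.

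The differences varied between litters. The median over the 43 genes was -0.03, -0.12, 0.04, 0.04, -0.09 and -0.15 in litters 1 to 6, and 26, 33, 12, 14, 32 and 34 genes were lower. In litters 2 and 6 all 22 bright transporters were lower in the KIS-ko brain, and in litter 4 only 4 were. Of all 6214 genes above background, 5438 were lower in litter 2, 5826 in litter 6 and 622 in litter 4. The median over all genes ranged from -0.11 in litter 6 to 0.07 in litter 4, and the difference between the medians of the arrays of a pair ranged from -0.17 in litter 6 to 0.10 in litter 4. In litter 3 that difference was -0.03 while the median of the transporters was 0.04. The part of these array medians in the transporter values was not tested beyond the centring above. Without litter 4, 11 transporter genes passed an unadjusted p of 0.05 in place of 1, with 9 lower (Slc1a4, Slc1a6, Slc7a2, Slc7a3, Slc7a6, Slc7a6os, Slc7a11, Slc36a4 and Slc38a9) and 2 higher (Slc7a15 and Slc38a8). The number of all genes at that threshold went from 1065 to 3913, and no transporter passed the adjusted test (lowest adjusted p = 0.146 by limma).

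**Figure D4:**
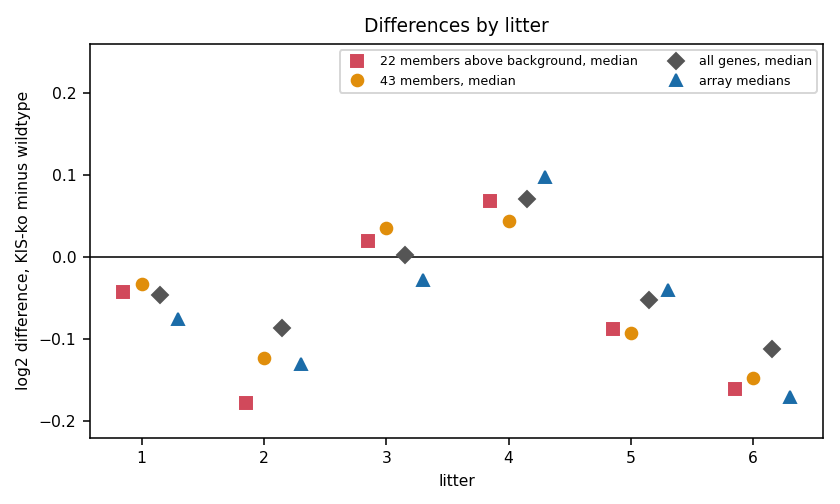
Log2 difference, KIS-ko minus wildtype (vertical axis), in each of the 6 litters (horizontal axis): the median of the 22 transporter genes above background, of all 43 transporter genes and of all genes, and the difference of the array medians. The 22 bright genes lie at -0.18 in litter 2 and at 0.07 in litter 4, on the same side of 0 as all genes in every litter.

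The same fit was run on each probeset alone. Of the 578 probesets of the transporter genes 416 were lower (72.0%, against 66.2% of all 205469 probesets), and none passed the adjusted threshold, which 0.00487% of all probesets did. At an unadjusted p under 0.05, 16 were lower (2.77%) and 8 higher (1.38%), where 4.72% and 1.91% of all probesets were. The lowest adjusted p was 0.327, for a probeset of Slc38a11 (chromosome 2, 65192641 to 65192918) whose mean signal was 62.6 in wildtype and 90.3 in KIS-ko brains, both below the 714 of the intron controls. Of the 12 probesets of Slc1a7 6 were lower, and at an unadjusted p under 0.05 it held 1 lower and 2 higher, all dim. In Slc7a3 the probesets lower at an unadjusted p under 0.05 were at 98274820 to 98274922 (-0.41, SE 0.15) and at 98279455 to 98279567 (-0.19, SE 0.079).

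Other genes of amino acid transport and use were read from lists by function, and none passed the adjusted test. Their counts stand beside those of all genes, of which 69.8% were lower, 86.4% among genes above background, and 4.34% lower at an unadjusted p under 0.05. Of 16 amino acid and amine carriers of the Slc6 family 13 were lower (median -0.07), and 2 passed an unadjusted p of 0.05: the betaine and GABA carrier Slc6a12 (-0.18, SE 0.047, lower in 6 of 6 litters, not above background) and the proline carrier Slc6a7 (-0.13, SE 0.052, lower in 5 of 6). All 9 vesicular and other carriers tested were lower (median -0.07), none past that threshold. Of 12 genes of glutamate and glutamine metabolism 11 were lower (median -0.05), again none past it. With centred arrays 9 of 16, 6 of 9 and 6 of 12 genes of these lists were lower, where 37.8% of all genes and 40.9% of those above background were.

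Of 15 genes of the amino acid response and of serine synthesis, 11 were lower (median -0.04), where 69.8% of all genes were. Atf4 itself differed by -0.05 (SE 0.063) and its target Asns, which makes asparagine, by -0.09 (SE 0.065). The 4 higher genes, none above background, were Chac1 (0.13, SE 0.078), Ddit3 (0.04, SE 0.059), Trib3 (0.00, SE 0.062) and Nupr1 (0.00, SE 0.049). Sesn2, a leucine sensor, passed the unadjusted threshold (-0.15, SE 0.053, lower in 6 of 6 litters, not above background). All 16 genes tested of amino acid sensing by mTORC1 were lower (median -0.06), with Sesn2 the only one past an unadjusted p of 0.05. Of 11 genes of glutathione synthesis, for which Slc7a11 supplies cystine, 7 were lower (median -0.03), and Nfe2l2, a regulator of the response to oxidants, passed that threshold (-0.22, SE 0.090, lower in 5 of 6 litters, not above background). Of 9 regulators of transport at the membrane 7 were lower (median -0.04), and the deubiquitinase Usp8 passed it (-0.16, SE 0.065, lower in 5 of 6 litters). With centred arrays 5 of 15, 8 of 16, 4 of 11 and 4 of 9 genes of these lists were lower, where 37.8% of all genes were. The adjusted p of each gene named in the lists was at least 0.685 by limma.

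Markers of the other cells that hold these carriers were read as well. Of the 12 endothelial markers, whose cells express Slc7a5, Slc3a2 and Slc38a5, 10 were lower (median -0.06) and 10 were not above background, and their summed level ranged from 12.89 to 13.16 in wildtype and from 12.88 to 13.07 in KIS-ko brains. Of 7 radial glia markers 6 were lower (median -0.05), with summed levels from 14.32 to 14.49 in wildtype and from 14.24 to 14.45 in KIS-ko brains. With centred arrays 6 of 12 and 3 of 7 were lower, where 37.8% of all genes were. Of the markers of pericytes 4 of 6 were lower, with Rgs5 past an unadjusted p of 0.05 (-0.16, SE 0.066, lower in 4 of 6 litters, adjusted p = 0.685 by limma). Of those of meninges 6 of 8 were lower, of choroid plexus 5 of 8, of neurons 6 of 7, of the oligodendrocyte lineage 7 of 9, of microglia 6 of 9 and of erythroid cells 1 of 6, where 69.8% of all genes were lower. With centred arrays these 7 counts were 2 for pericytes, 4 for meninges, 3 for choroid plexus, 1 for neurons, 4 for the oligodendrocyte lineage, 2 for microglia and 0 for erythroid cells. The summed levels of the genotypes overlapped in every list, and their part in the transporter values was not tested.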

How the data were processed

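The authors processed the arrays with the Affymetrix Expression Console, quantile-normalized them at the exon level and estimated probeset signals with PLIER, tools also named in the submitters' processing notes. The intensity they deposited is this linear signal per probeset and array. The build behind the positions in the table is not given in the sources used here. RefSeq promoters are of GRCm38.p6, and no position was converted between builds.

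Main probesets with a gene symbol were used. Probesets with a relative SD above 0.4 in either genotype were rejected, as in the study's methods, which left 205469 of 221417 and removed 36 of those of the transporter genes. The mean of log2(signal + 16) of each gene was fitted with a term for the litter in limma 3.58.1 (R 4.3.3; lmFit and eBayes), and p-values were adjusted over 17279 genes by the Benjamini-Hochberg method at a threshold of 0.05. A positive pseudocount shrinks the differences of dim genes. The pairing comes from the litter labels. The correlation of littermates' deviations from their genotype means ran from -0.093 to 0.325 and exceeded 0.1 in 3 of 6 pairs. Values per litter, sign-flip tests and plots were made in Python 3.11.15 (numpy 2.4.6, pandas 2.3.3, scipy 1.17.1, matplotlib 3.10.9). The fit was tested on simulated data. The number of arrays and the signal over background limit the precision, and 5222 intron control probesets gave the background.

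Named genes were those of best known role in the brain, those at an unadjusted p under 0.05 or moved one way in all litters, and the extremes of each family, together with genes of the lists at an unadjusted p under 0.05. Atf4, Asns, the higher genes of the amino acid response list and the remaining markers were named beside these. The transporter genes, lists and tests were chosen with earlier results of these data known. Alternatives were a fit without the litter, pseudocounts of 1 and 64, a relative SD filter at 0.2 or none, brighter probesets alone, centred or again quantile-normalized arrays, the median over probesets, the methods' weighted mean of ratios, moderation with trend and robust, probesets matching 1 place, the median of the intron controls as background, and each litter left out.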

Additional observations from a re-analysis of the deposited data

Results flagged for a closer look

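Each gene was searched in each genotype for a brain far from the other 5. Of 86 groups of 6 brains 6 held one, and chance alone gives about 1 in 20. In litter 4 the KIS-ko brain was highest for Slc7a6 (10.56, next 10.41), Slc36a4 (11.20, next 11.04) and Slc38a2 (12.08, next 11.80), and its array had a higher median than that of its littermate, unlike the other litters. In litter 2 the KIS-ko brain was highest for Slc36a2 (7.53, next 7.40), a gene not above background. The wildtype brain of litter 6 was highest for Slc7a11 (9.91, next 9.78), and that of litter 5 lowest for Slc38a9 (9.37, next 9.72). The part of single brains in these values was not tested further than by leaving out litters.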

How the results depend on the processing

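No transporter gene passed the adjusted test under any alternative with a test, and 33 of 43 were lower in the paired fit and without the replicate block. Without that block Slc7a11 in place of Slc7a3 passed an unadjusted p of 0.05 (lowest adjusted p = 0.747 by limma). Of all genes 1017 passed it there, against 1065 in the paired fit. The number lower fell to 17 with centred arrays, where 16 genes changed sign, 11 of them above background. The number at an unadjusted p of 0.05, 1 as reported, was 0 with a pseudocount of 1 or a further quantile normalization, 2 with no relative SD filter, 3 with a pseudocount of 64 or a filter at 0.2, and 4 with the median over probesets or with trend and robust moderation. The number of all genes at that threshold, 1065 as reported, was 1041, 1219, 1036, 1122, 1281, 1090 and 1192 under these 7 alternatives in turn. Of the transporters counted, 1 was higher with the filter at 0.2 and 2 were higher with the median over probesets, and the others were lower. As litters were left out, the number of transporter genes at an unadjusted p of 0.05 ranged from 0 (without litter 2 or 6) to 11 (without litter 4). That of all genes ranged from 550 (without litter 6) to 3913 (without litter 4). The number of all genes past the adjusted threshold ranged from 1 to 2. That number was also 2 with a pseudocount of 64, no filter or trend and robust moderation, and 5 with a filter at 0.2 or dim probesets left out. These last left out 2 and 12 transporter genes. With the median of the intron controls as background, 39 genes were above it instead of 22. The cause of these shifts was not tested. By the 95th percentile of the intron controls, 21 transporters lacked a majority of probesets above background, which limits what can be said of them.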
